A study of Homo sapiens with 105 samples.

Results

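The genes described here encode the building blocks of the junctions that hold the cells of a stratified epithelium together: the desmosomal cadherins DSC2, DSC3, DSG2 and DSG3, the desmosomal plaque proteins PKP1, PKP3, JUP and DSP, and the classical cadherins CDH1 and CDH3 of the adherens junction. They were 10 genes of 19775 with a probeset of their own on the array, and were taken by gene symbol; 20 of the 54613 probesets measured them, and none of the 20 named a second gene. Each gene is given by the brightest of its probesets, on a log2 scale after quantile normalization, so that a difference of 1 is a 2-fold change. All 10 genes were bright: the GM means ran between 11.08 for PKP3 and 14.39 for DSP, and the array medians of the GM samples before normalization between 6.28 and 6.91.

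The study asked which transcripts in vaginal epithelium separate compounds known to inflame or damage the mucosa (pro-inflammatory compounds, PICs) from inert ones (non-inflammatory compounds, NICs). RNA came from Vk2/E6E7 cells, an epithelial line from normal human vagina immortalized with the E6 and E7 genes of a papillomavirus, after 6 h of exposure in growth medium, and was hybridized to Affymetrix U133 Plus 2.0 arrays. The PICs were TNF-α, a cytokine, at 40 ng/ml (5 arrays used), Pam3CSK4, a lipopeptide ligand of TLR1/TLR2, at 10 μg/ml (6), MALP2, a lipopeptide ligand of TLR2/TLR6, at 200 ng/ml (6), imiquimod, a ligand of TLR7, at 30 mg/ml by the labels and 30 μg/ml by the study's methods (6), and N-9 (nonoxynol-9), a surfactant that damages membranes, at 12.5 μg/ml (9). The NICs were the cellulose ethers HEC (hydroxyethyl cellulose) and CMC (carboxymethyl cellulose) at 1 mg/ml (9 each) and growth medium alone, GM (53). All groups share 1 immortalized cell line, so that no group holds the other cell types of the mucosa.

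The arrays are numbered as biological replicates within a group, but the labels do not say whether separate cultures were used, so that p-values reflect only how these arrays scatter, a scatter that may be technical in origin. 2 arrays were left out. GM replicate 52 correlated with no other array above 0.0493, where every other pair reached at least 0.836, and TNF-α replicate 6 equalled the mean of TNF-α replicates 1 to 3 to within 7.67e-09. Keratin genes KRT5 and KRT14 of basal epithelium averaged 14.46 and 14.71 in GM, and PTPRC, the pan-leukocyte marker, averaged 4.31. The markers of other cell types ranged widely in GM. Over means of 3 consecutive replicate numbers, their medians lay between 3.56 for CDH5 and 10.66 for COL1A1, with PECAM1 at 8.27 and DCN at 7.72. None of the 3 epithelial markers measured passed the test with any treatment, and of the 16 markers of other cell types only CD14 with imiquimod and KDR with Pam3CSK4 passed, both lower. In bulk RNA, fewer cells of a type and less RNA per cell cannot be told apart.

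Desmosomes are spot welds between cells. Desmogleins and desmocollins cross the membrane and bind their partners on the neighbouring cell, plakoglobin (JUP) and plakophilins (PKP) bind the tails of the cadherins, and desmoplakin (DSP) ties this plaque to keratin filaments. Adherens junctions use E-cadherin (CDH1) or P-cadherin (CDH3) with β-catenin and α-catenin and tie to actin instead. In stratified epithelia DSG3, DSC3 and CDH3 are typical of the basal layers, DSG1, DSC1 and corneodesmosin (CDSN) of the upper, more differentiated layers, and DSG2 and DSC2 are the isoforms that simple epithelia also use. The family sits in a cluster on chromosome 18, where the RefSeq annotation of GRCh38.p14 places DSC3 at chr18:30989365-31042742, DSC2 at chr18:31058840-31102421, DSG3 at chr18:31447741-31478702 and DSG2 at chr18:31498177-31549008.

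The windows of 250 bases upstream of the RefSeq start site are shown for DSC2, the member that changed most, for DSC3, its neighbour in the cluster, which did not pass against all GM arrays, and for DSP, the other member that did. In DSC2 (chr18:31101261-31101510, minus strand) the capitals mark 3 copies of a stretch of 25 bases set end to end, and in DSP (chr6:7541421-7541670, plus strand) they mark 2 matches to CACCTG, the E-box that the cadherin repressor SNAI1 binds, read on either strand. The DSC2 window lies inside the annotated span of the gene, since that span starts further upstream. No motif searched was found in the DSC3 window (chr18:31042743-31042992, minus strand), which has no capitals. Repeats were marked in DSC2 only: DSC3 and DSP each hold a stretch of 8 bases in 2 copies that was left unmarked.
DSC2: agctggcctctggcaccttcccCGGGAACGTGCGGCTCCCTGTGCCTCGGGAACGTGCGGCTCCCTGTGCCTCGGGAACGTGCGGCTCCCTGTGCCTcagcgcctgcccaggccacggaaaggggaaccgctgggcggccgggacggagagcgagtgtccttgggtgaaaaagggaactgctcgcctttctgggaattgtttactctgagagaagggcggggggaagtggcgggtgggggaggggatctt
DSC3: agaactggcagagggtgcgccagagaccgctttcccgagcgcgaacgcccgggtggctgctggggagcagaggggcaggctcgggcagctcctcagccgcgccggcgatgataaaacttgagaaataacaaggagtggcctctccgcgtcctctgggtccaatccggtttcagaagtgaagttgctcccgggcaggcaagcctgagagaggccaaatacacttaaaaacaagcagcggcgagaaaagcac
DSP: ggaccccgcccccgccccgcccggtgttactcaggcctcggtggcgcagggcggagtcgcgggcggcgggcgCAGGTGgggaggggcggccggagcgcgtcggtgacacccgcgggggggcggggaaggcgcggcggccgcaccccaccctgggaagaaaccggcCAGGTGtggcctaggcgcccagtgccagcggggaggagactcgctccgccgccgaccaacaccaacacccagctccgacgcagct

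A window was found for 7 of the 10 members. A stretch of 25 bases or more that occurs again without overlap was present in 0.991% of all 35116 windows in the RefSeq promoter table. CACCTG was found in 17.5% of those windows, and among the members it occurred 2 times each in DSG2, JUP and DSP and was not found in DSC2, DSC3, DSG3 and PKP1. The AP-1 site TGANTCA (6.57% of windows), the NF-κB consensus (5.21%) and the site AACCGGTT of the grainyhead-like factors (0.117%) were not found in any of the 7 windows on either strand. These matches describe letters in these windows only.

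Against all 53 GM arrays 2 of the 10 junction genes passed the test, both as higher. DSC2, a desmocollin, was higher with the 3 TLR ligands, 2.40-fold with Pam3CSK4, 2.45-fold with MALP2 and 2.59-fold with imiquimod, and DSP, the plaque protein, was 1.24-fold higher with imiquimod. Against those 53 arrays no member passed with TNF-α, N-9, HEC or CMC, and none passed as lower. Passing means an adjusted p under 0.05 in limma, with Benjamini-Hochberg adjustment over all 54613 probesets of a comparison and no limit on the fold.

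The calls and the directions depended on which GM arrays were the controls. When GM replicates 1 to 9 alone served, 11 of the 70 comparisons passed, 6 higher and 5 lower, and the sign of 26 of the 70 differences turned, 2 of them among the 11. DSC2 then passed as higher with TNF-α too (1.37, adjusted p = 0.0395 in limma), and DSP with Pam3CSK4 (0.32, adjusted p = 0.00956). Lower were CDH3 with TNF-α (−0.76, adjusted p = 0.0170 in limma), Pam3CSK4 (−0.68, adjusted p = 0.0161) and CMC (−0.65, adjusted p = 0.0491), DSC3 with imiquimod (−0.61, adjusted p = 0.0485) and PKP1 with N-9 (−1.15, adjusted p = 0.000580). The values that follow are against all 53 GM arrays unless other controls are named.

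With Pam3CSK4, 1 of 10 members passed (DSC2), where 1.92% of the 19775 genes passed as higher and 1.27% as lower. MALP2 gave 1 of 10 (DSC2), against 5% of genes higher and 4.6% lower. Imiquimod gave 2 of 10 (DSC2 and DSP), against 6.89% higher and 7.04% lower. Counts of 1 or 2 of 10 do not set the members apart from that background.

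N-9 moved the most genes of the array, 6.65% higher and 13.2% lower, and 0 of 10 members passed limma's test, DSG2 and CDH3 having an unadjusted p under 0.05. A count of 0 of 10 does not set the members apart from that background. TNF-α gave 0 of 10, against 0.774% of genes higher and 0.233% lower, with 0 members at an unadjusted p under 0.05. HEC gave 0 of 10, against 0.298% higher and 0.536% lower, with DSC2 and CDH3 under that unadjusted level. CMC gave 0 of 10, against 0% in either direction, with 0 members under it. The analysis of variance that the study's methods name, with a fold over 2, also called 0 members with each of these 4 treatments. The median log2 difference to GM over the 10 members was −0.04 after TNF-α, 0.31 after Pam3CSK4, 0.27 after MALP2, 0.12 after imiquimod, −0.01 after N-9, 0.04 after HEC and 0.04 after CMC, where the median over all genes lay between −0.05 and 0.03.

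**Figure D1:**
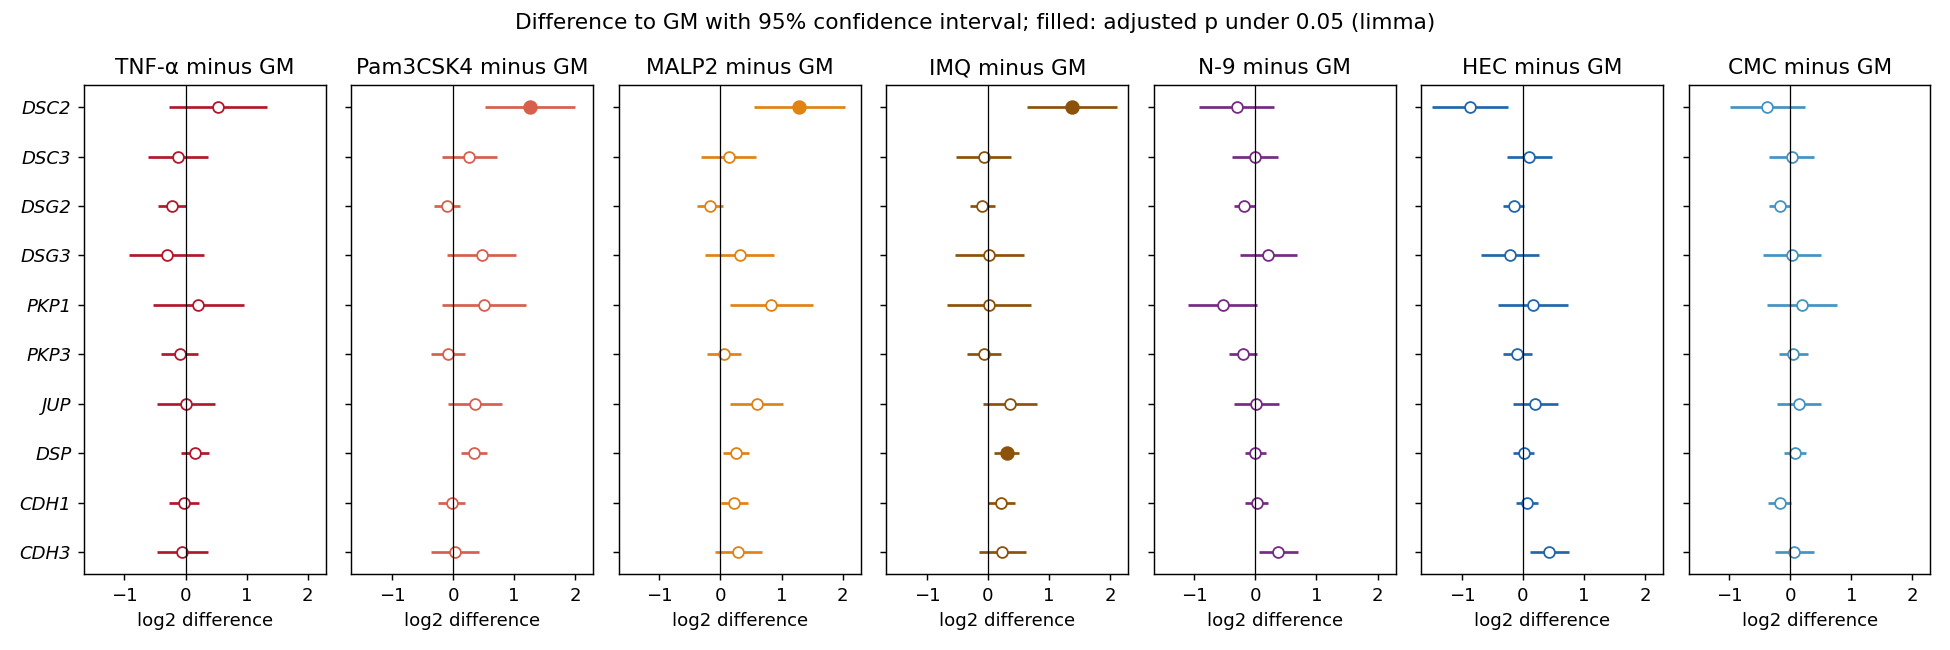
Log2 difference to GM (x axis) of the 10 junction genes (rows) with each of the 7 treatments (panels, IMQ for imiquimod); points are limma estimates, bars 95% confidence intervals, and filled points passed at an adjusted p under 0.05. The 4 filled points are DSC2 with Pam3CSK4, MALP2 and imiquimod, at 1.26, 1.29 and 1.38, and DSP with imiquimod at 0.31.

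DSC2 had the widest range of group means of the members, 2.24 log2 units. With imiquimod its 6 arrays lay at 12.47, 13.31 and 13.88 (lowest, median and highest), with MALP2 at 11.83, 13.25 and 14.32 and with Pam3CSK4 at 12.34, 13.09 and 13.86, while the 53 GM arrays lay at 10.29, 11.64 and 14.44. All 6 arrays of each ligand were above the GM median, and none was above the highest GM array, so each group overlapped GM. The log2 difference to GM was 1.38 ± 0.37 with imiquimod (SE, 6 against 53 arrays, adjusted p = 0.00634), 1.29 ± 0.37 with MALP2 (adjusted p = 0.0170) and 1.26 ± 0.37 with Pam3CSK4 (adjusted p = 0.0483), all in the limma fit.

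DSC2 with TNF-α lay at 11.56, 11.90 and 13.35 on 5 arrays, 0.54 above GM (adjusted p = 0.798 in limma), against 1.37 and a pass with GM replicates 1 to 9 as controls. HEC was on the other side: its 9 arrays lay at 10.14, 11.22 and 11.57, none above the GM median and 2 below every GM array, with a difference of −0.86 ± 0.31 (SE, adjusted p = 0.155 in limma). N-9 and CMC differed from GM by −0.31 and −0.38, and their arrays lay on both sides of the GM median. Against GM replicates 1 to 9 both were above the controls, by 0.52 and 0.45, and neither passed. HEC was at −0.04 against those controls (adjusted p = 0.991 in limma).

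The DSC2 values of the TLR ligands fell into sets by replicate number. Replicates 4 to 6 averaged 14.17 with MALP2, 13.86 with imiquimod and 13.79 with Pam3CSK4, and replicates 1 to 3 of the same treatments averaged 12.13, 12.60 and 12.44. TNF-α showed the same split, 13.33 in replicates 4 and 5 and 11.77 in replicates 1 to 3. Replicates 1 to 3 of each treatment were thus the lower set, yet all their means stood above 11.69, the median of the 18 GM runs.

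Without replicates 4 to 6 the DSC2 difference was 0.74 with imiquimod (adjusted p = 0.421 in limma), 0.58 with Pam3CSK4 (adjusted p = 0.792) and 0.27 with MALP2 (adjusted p = 0.862). The Pam3CSK4 call was also lost when any 1 of its 6 arrays was left out (log2 difference 1.11 to 1.42), the MALP2 call when replicate 4, 5 or 6 was (1.12, 1.06 and 1.09), and the imiquimod call in no such case, although it was lost when the 4 probesets were averaged (0.88, adjusted p = 0.0579).

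The GM arrays varied in the same manner. Taken in runs of 3 consecutive replicate numbers, GM arrays differed far more between runs than within them, and the labels do not say what a run shared. For DSC2 the SD was 0.14 within GM runs and 0.94 between the 18 run means, which spanned 10.40 to 14.32. The highest was GM replicates 43 to 45, above every run of every treatment. With a random effect of run in limma (consensus correlation 0.438), DSC2 kept its call with imiquimod (adjusted p = 0.0159) and MALP2 (adjusted p = 0.0416) and lost it with Pam3CSK4 (adjusted p = 0.140).

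**Figure D2:**
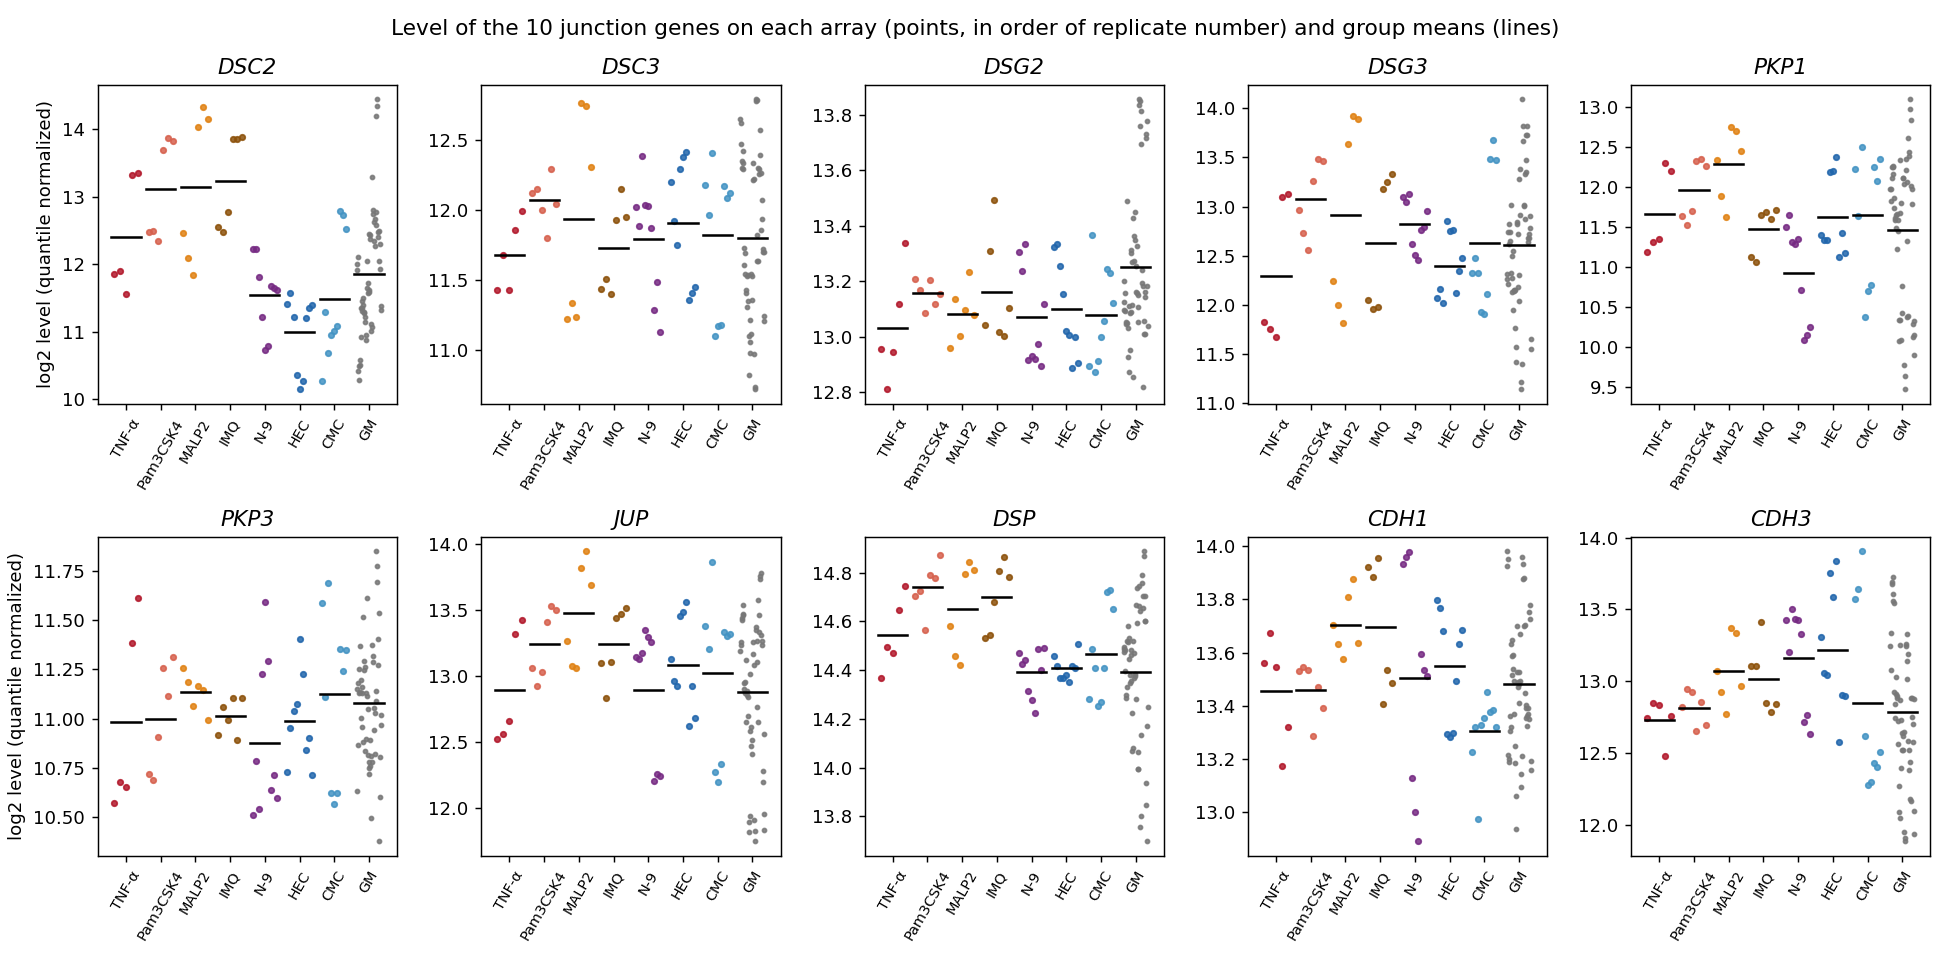
Level of each junction gene (y axis, log2, quantile normalized) on every array, with arrays in order of replicate number within a group and lines at group means; treatments stand left and GM right. For DSC2 replicates 4 to 6 of the TLR ligands sit above replicates 1 to 3, and GM spans 10.29 to 14.44.

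DSC2 was read by 4 probesets, and they did not all respond alike. The probeset 204751_x_at passed with Pam3CSK4 (1.66, adjusted p = 0.0227 in limma) and MALP2 (1.37, adjusted p = 0.0416) but not with imiquimod (1.25, adjusted p = 0.0533). The dimmer 231033_at passed only with imiquimod (1.31, adjusted p = 0.00067), and 204750_s_at passed with none and was at −0.42 with imiquimod. The calls of 204751_x_at were lost with a random effect of run (adjusted p = 0.0766 and 0.0954) and when replicate 4, 5 or 6 of the treatment was left out (1.53 to 1.55 with Pam3CSK4, 1.08 to 1.11 with MALP2). Without MALP2 replicates 4 to 6, 204751_x_at was at −0.01 with MALP2 (adjusted p = 0.996 in limma).

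DSP, which anchors keratin filaments and was the brightest member, moved within a narrow band. Its 6 imiquimod arrays lay at 14.53, 14.73 and 14.86, against 13.70, 14.46 and 14.89 in GM, and all 6 were above the GM median. The difference was 0.31 ± 0.10 (SE, adjusted p = 0.0421 in limma). Pam3CSK4 gave 0.35 with all 6 arrays above the GM median (adjusted p = 0.0580) and MALP2 0.26 (adjusted p = 0.143). The imiquimod call was lost with a random effect of run (adjusted p = 0.125 in limma), without quantile normalization (adjusted p = 0.0612), with GM and imiquimod alone in the fit (adjusted p = 0.115) and without imiquimod replicate 3, 4, 5 or 6 (adjusted p between 0.0822 and 0.125).

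The imiquimod arrays also differed in the control probesets for RNA quality. The 3′ minus 5′ difference of ACTB averaged 0.95 ± 0.68 with imiquimod (SD, n = 6) and 0.43 ± 0.28 in GM (SD, n = 53), the other treatments averaging between 0.33 and 0.49. Its part in the DSP and DSC2 results was not tested.

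Plakophilins gave a split answer by probeset. PKP1, the plakophilin of stratified epithelia, passed with no treatment by its brightest probeset, 221854_at: the difference was 0.83 with MALP2 (adjusted p = 0.149 in limma), 0.51 with Pam3CSK4, 0.02 with imiquimod and −0.54 with N-9 (adjusted p = 0.205). The 9 N-9 arrays lay at 10.08, 11.28 and 11.65, all under the GM median of 11.74, while GM itself ran between 9.47 and 13.10. Against GM replicates 1 to 9 the N-9 difference was −1.15 and passed, and that with imiquimod was −0.60 (adjusted p = 0.117 in limma). MALP2 was at 0.22 (adjusted p = 0.650 in limma) and Pam3CSK4 at −0.11 (adjusted p = 0.849) against the same controls. The dimmer probeset 205724_at was higher with MALP2 (1.39, adjusted p = 1.58e-05), Pam3CSK4 (1.11, adjusted p = 0.00320) and imiquimod (0.80, adjusted p = 0.0190).

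With a random effect of run 205724_at kept its call with MALP2 (adjusted p = 0.000166) and Pam3CSK4 (adjusted p = 0.0193) and lost it with imiquimod (adjusted p = 0.0567). Without replicates 4 to 6 its adjusted p was 0.0515 with MALP2, 0.443 with Pam3CSK4 and 0.477 with imiquimod, and the imiquimod call was also lost without replicate 4, 5 or 6 alone (0.72, 0.73 and 0.74). PKP3, which is found more widely in epithelia, stayed within 0.20 of GM by its brightest probeset, and its dimmer probeset 209872_s_at was lower with imiquimod (−0.57, adjusted p = 0.0224), a call lost with a random effect of run (adjusted p = 0.147) and without imiquimod replicate 1, 2 or 3 (−0.50, −0.52 and −0.44). Without N-9 replicates 4 to 6 the brightest PKP3 probeset passed as lower with N-9 (−0.45, adjusted p = 0.0108 in limma). Over all 20 probesets of the members, 11 of 140 comparisons with GM passed, 10 higher and 1 lower. Among all probesets 0.721% passed after TNF-α, 2.17% after Pam3CSK4, 6.95% after MALP2, 10.9% after imiquimod, 17.4% after N-9, 0.793% after HEC and 0.00183% after CMC, and the 11 calls lay with Pam3CSK4 (3), MALP2 (3) and imiquimod (5).

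**Figure D3:**
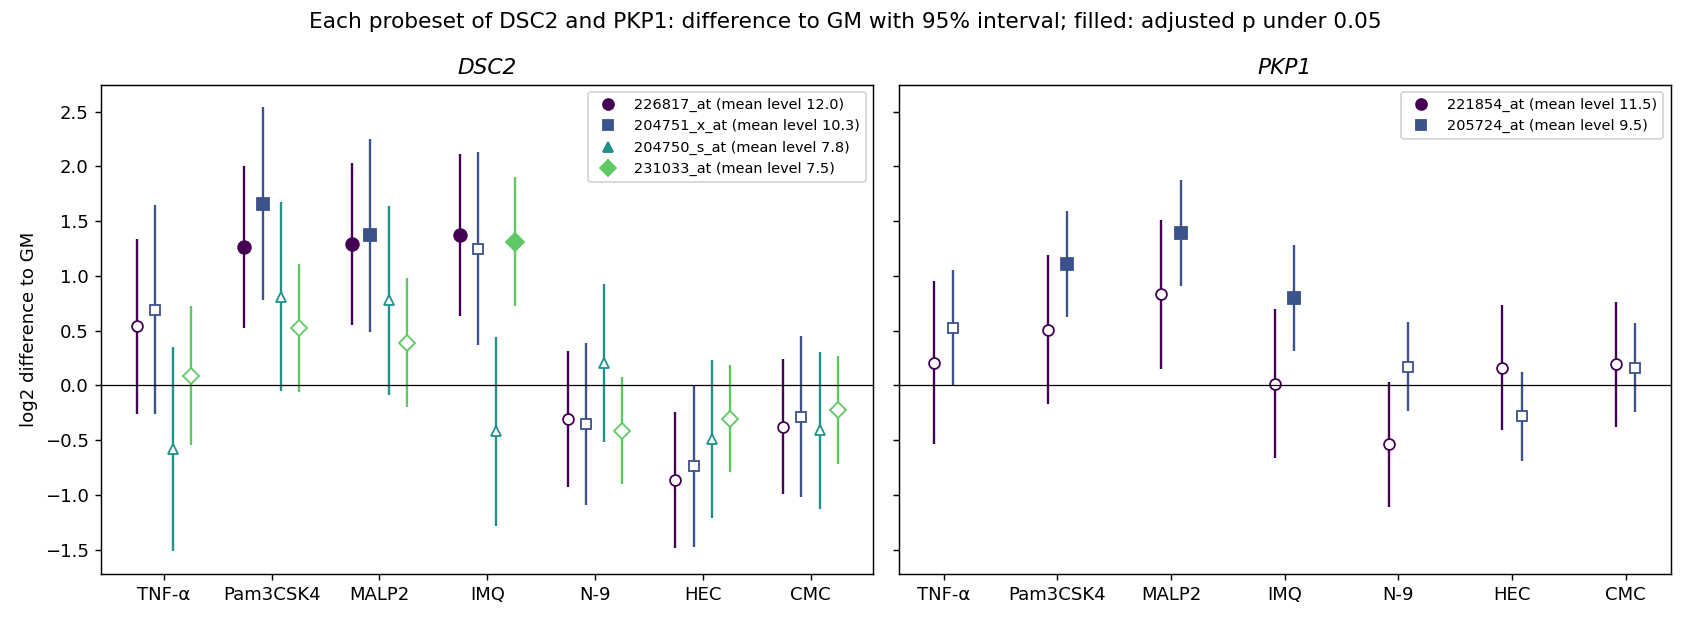
Log2 difference to GM (y axis) of each probeset of DSC2 (4 probesets) and PKP1 (2 probesets) with each treatment (x axis); bars are 95% confidence intervals and filled symbols passed at an adjusted p under 0.05 in limma. The brightest PKP1 probeset has no filled symbol, and the dimmer one has 3, at 1.11, 1.39 and 0.80.

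JUP, the plakoglobin shared by desmosomes and adherens junctions, lay at 13.06, 13.47 and 13.94 on the 6 MALP2 arrays, against 11.75, 12.95 and 13.78 in GM. All 6 MALP2 arrays were above the GM median and 2 were above every GM array, and the difference of 0.59 ± 0.22 did not pass (SE, adjusted p = 0.0944 in limma). It passed without quantile normalization (0.67, adjusted p = 0.0246 in limma). It also passed without GM replicates 43 to 45 (0.64, adjusted p = 0.0462), an alternative chosen after seeing the data. Against GM replicates 1 to 9 alone the difference was 0.15 (adjusted p = 0.691 in limma). With the replicate number as a block it was 0.06 (adjusted p = 0.879), and with a random effect of run 0.60 (adjusted p = 0.216). JUP also split by replicate number, averaging 13.13 in MALP2 replicates 1 to 3 and 13.81 in replicates 4 to 6. The 2 arrays above every GM array were MALP2 replicates 4 and 5.

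The basal desmosomal cadherins passed with no treatment when all arrays were used. DSG3, the pemphigus vulgaris antigen, was at 0.47 with Pam3CSK4 (95% interval −0.09 to 1.03), 0.31 with MALP2 (−0.25 to 0.88) and −0.31 with TNF-α (−0.92 to 0.30). Like DSC2 it split by replicate number: replicates 4 to 6 averaged 13.82 with MALP2, 13.40 with Pam3CSK4 and 13.26 with imiquimod, and replicates 1 to 3 averaged 12.02, 12.75 and 12.00. Without MALP2 replicates 1 to 3, DSG3 passed as higher with MALP2 (1.22, adjusted p = 0.0396 in limma). DSC3 lay within 0.27 of GM with every treatment, with the widest 95% interval for TNF-α (−0.61 to 0.36), and passed as lower with imiquimod against GM replicates 1 to 9. DSG2 was below GM with all 7 treatments, by 0.09 to 0.22, and the interval for TNF-α was −0.45 to 0.01, but against GM replicates 1 to 9 it was at 0.01 with Pam3CSK4 and 0.02 with imiquimod. Without N-9 replicates 1 to 3, DSG2 passed as lower with N-9 (−0.29, adjusted p = 0.0447 in limma).

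E-cadherin and P-cadherin did not pass either with all arrays. CDH1 was at 0.22 with MALP2 (adjusted p = 0.281 in limma) and 0.22 with imiquimod (adjusted p = 0.247), and all 9 CMC arrays lay under its GM median with a difference of −0.18 (adjusted p = 0.703). CDH3 was at 0.43 with HEC (adjusted p = 0.173), with 8 of 9 arrays above the GM median, and at 0.38 with N-9 (adjusted p = 0.103), with 7 of 9 above it. It passed as higher without HEC replicates 7 to 9 (0.65, adjusted p = 0.0327 in limma), without N-9 replicates 7 to 9 (0.60, adjusted p = 0.0170) and, with N-9, without quantile normalization (0.48, adjusted p = 0.0213). GM replicates 1 to 9 were high for CDH3, with run means of 13.22, 13.70 and 13.57, and against them CDH3 was at −0.28 with HEC, −0.34 with N-9 and below these controls with all 7 treatments. By group mean, CDH3 ran in the order HEC 13.22, N-9 13.16, MALP2 13.07, imiquimod 13.02, CMC 12.85, Pam3CSK4 12.81, GM 12.78 and TNF-α 12.73, and each step in that order was smaller than the larger SD of its 2 groups.

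Differences between compounds were tested directly in 12 pairs of treatments, for all 10 members. Of these 120 comparisons 4 passed, all with N-9 below a TLR ligand. DSC2 was lower with N-9 than with imiquimod by 1.68 (adjusted p = 0.00773 in limma), with MALP2 by 1.60 (adjusted p = 0.00938) and with Pam3CSK4 by 1.57 (adjusted p = 0.0132), and PKP1 was lower with N-9 than with MALP2 by 1.37 (adjusted p = 0.0172). The highest N-9 array for DSC2, 12.23, lay below every imiquimod and Pam3CSK4 array. DSP likewise had no N-9 array above 14.49 and no imiquimod or Pam3CSK4 array below 14.53, with differences of −0.31 and −0.35 that did not pass (adjusted p = 0.110 and 0.0647 in limma). Among all genes, 7.77% passed as lower with N-9 than with imiquimod, 9.71% than with MALP2 and 8.67% than with Pam3CSK4. How many of all genes had arrays wholly apart in these pairs was not counted, so the separation of DSC2 and DSP is descriptive only.

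The 3 DSC2 differences kept their calls with a random effect of run (adjusted p = 0.0245 against imiquimod, 0.0243 against MALP2 and 0.0351 against Pam3CSK4), and that of PKP1 did not (adjusted p = 0.0512). Whether these DSC2 calls hold without replicates 4 to 6 of the ligands was not tested. In replicates 1 to 3 DSC2 averaged 12.60 with imiquimod, 12.13 with MALP2 and 12.44 with Pam3CSK4. The 3 N-9 runs averaged 12.09, 10.91 and 11.64, so the first lay close to MALP2 replicates 1 to 3. The 4 comparisons share the N-9 arrays and are not independent of each other. Between the PICs other than N-9, 0 of 60 comparisons passed limma's test, and 0 had an unadjusted p under 0.05. That fit left out runs, and DSC2 split by replicate number in these groups. It averaged 11.77 in TNF-α replicates 1 to 3 and 13.33 in replicates 4 and 5. In replicates 4 to 6 it averaged 13.79 with Pam3CSK4, 14.17 with MALP2 and 13.86 with imiquimod. Such a split widens the error, so the count of 0 does not show that DSC2 was alike between them. CDH1 on all 6 MALP2 arrays (lowest 13.57) lay above every Pam3CSK4 array (highest 13.54). The difference of 0.24 did not pass (adjusted p = 0.791 in limma). How many of all genes were so separated in this pair was not counted, so this is descriptive only. Of all genes, 0% differed between Pam3CSK4 and TNF-α, 0.364% between MALP2 and TNF-α, 3.2% between imiquimod and TNF-α, 0.329% between MALP2 and Pam3CSK4, 3.96% between imiquimod and Pam3CSK4 and 2.92% between imiquimod and MALP2. N-9 against TNF-α (8.57% of genes) and against HEC (10.4%) likewise gave 0 of 10 members, with 0 at an unadjusted p under 0.05.

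HEC and CMC, both ethers of cellulose, one hydroxyethyl and the other carboxymethyl, were given at the same 1 mg/ml. No member passed between them (0 of 10, against 0% of genes), and CDH1 alone had an unadjusted p under 0.05, at 0.24 (95% interval 0.00 to 0.49, adjusted p = 0.703 in limma). The interval for DSC2 was −1.30 to 0.32 and that for CDH3 −0.06 to 0.79, so a DSC2 level 2-fold lower with HEC than with CMC lay within it. The lipopeptides Pam3CSK4 and MALP2 were given at different doses, and their DSC2 means were 13.12 and 13.15.

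**Figure D4:**
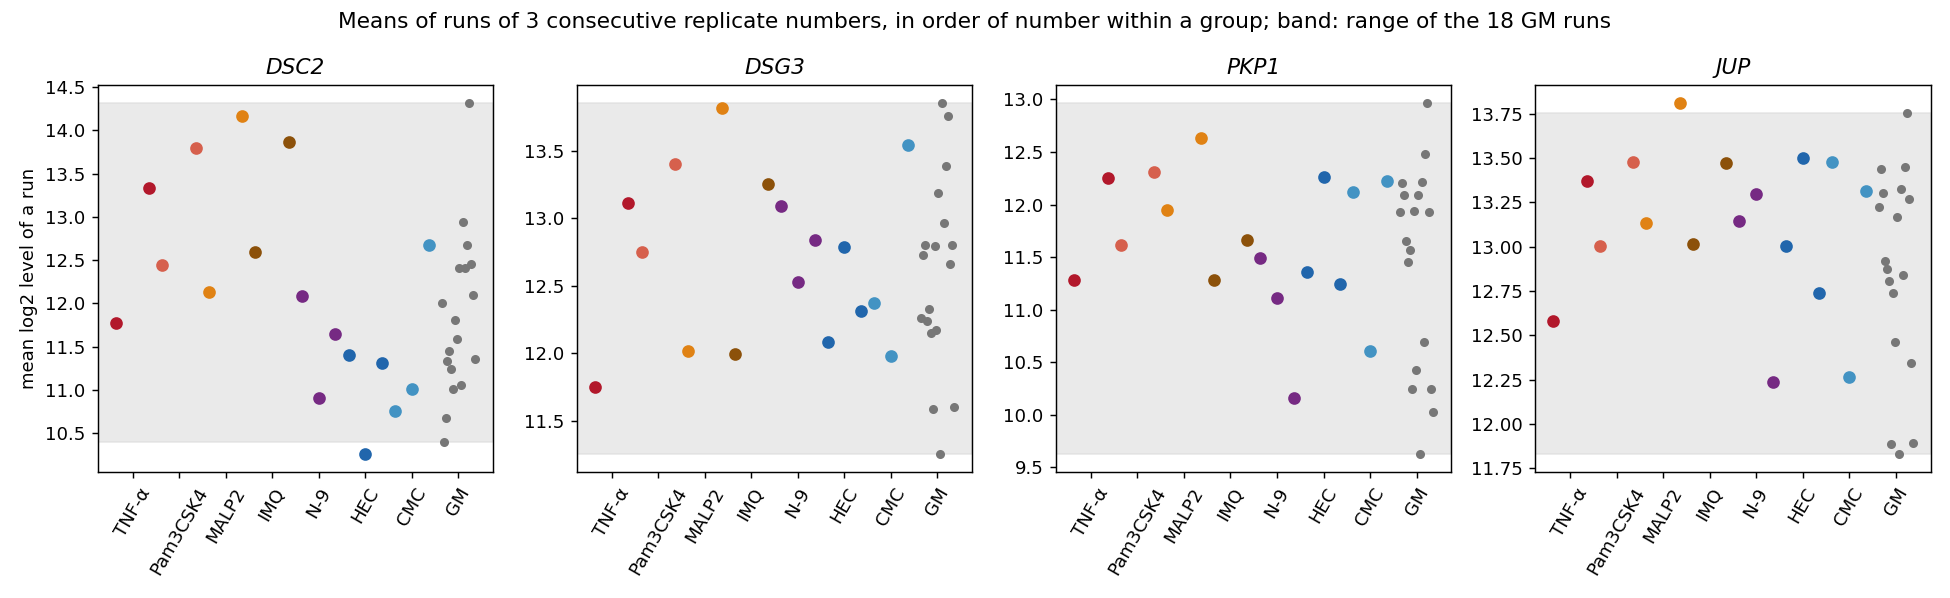
Mean log2 level (y axis) of each run of 3 consecutive replicate numbers for DSC2, DSG3, PKP1 and JUP, with treatments left, GM right and runs in order of number within a group; the band is the range of the 18 GM runs. For these genes no treatment has all its runs outside the band (IMQ is imiquimod), and the DSC2 band spans 10.40 to 14.32.

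The treatments were also judged by runs. In 0 of 70 cases did all runs of a treatment lie above, or all below, the 18 GM runs, where among all genes 0.698% lay wholly above after TNF-α, 0.85% after Pam3CSK4, 2.2% after MALP2, 2.89% after imiquimod, 0.592% after N-9, 0.0202% after HEC and 0.0152% after CMC. Wholly below lay 0.263% after TNF-α, 0.546% after Pam3CSK4, 1.23% after MALP2, 1.93% after imiquimod, 0.845% after N-9, 0.0607% after HEC and 0.0202% after CMC. Likewise no member had arrays of a treatment wholly apart from GM, where 0.0607% of genes did after TNF-α, 0.172% after Pam3CSK4, 0.668% after MALP2, 1.47% after imiquimod, 0.288% after N-9 and 0% after HEC or CMC. At shares this low, neither result sets the members apart from all genes.

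The members differed in how much the untreated runs varied. The SD between GM run means was 0.97 for PKP1, 0.94 for DSC2, 0.72 for DSG3, 0.58 for JUP, 0.58 for DSC3 and 0.50 for CDH3, and between 0.26 and 0.29 for CDH1, DSG2, DSP and PKP3. Within runs it was between 0.07 for CDH1 and 0.21 for PKP1. GM replicates 43 to 45 had the highest run mean of 5 members, DSC2, PKP1, PKP3, JUP and DSP, and they were the highest run for 8.13% of all genes. GM replicates 31 to 33 had the lowest run mean of 5 members, DSC3, DSG3, PKP1, JUP and CDH3, and were lowest for 4.97% of all genes. Members measured in the same runs are not independent of each other.

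Several of the 9 other desmosome genes listed, though not all, were also high in GM replicates 43 to 45. DSG1, the desmoglein of the upper layers, was chosen after its values were seen, as were DSC1, PPL and EVPL: it averaged 11.81 there, against a median GM run of 4.44, and DSC1 averaged 9.11 there, against 4.01. Corneodesmosin (CDSN), an adhesion protein of the outer layers, averaged 10.44 against 5.26, periplakin (PPL) 12.03 against 10.58 and envoplakin (EVPL) 9.03 against 7.64. PERP, a tetraspan protein of desmosomes, was at 14.73 against 14.39, whereas PKP2 had its lowest GM run there (10.54 against 11.05) and DSG4 (2.76 against 2.79) and PKP4 (10.78 against 10.70) lay near their medians. The basal keratins did not stand out in that run, KRT5 at 14.46 and KRT14 at 14.72, each close to its median GM run. Array medians there, 6.49 to 6.58, and the ACTB 3′ minus 5′ difference, 0.40, were within the range of the other GM runs.

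Replicates 4 to 6 of the TLR ligands stood high for DSG1 and CDSN. DSG1 averaged 10.77 there with imiquimod, 10.34 with Pam3CSK4 and 9.93 with MALP2, and 9.75 in TNF-α replicates 4 and 5, whereas in replicates 1 to 3 it averaged 3.20 with imiquimod, 7.04 with Pam3CSK4, 3.17 with MALP2 and 3.42 with TNF-α. CDSN averaged 9.18 with imiquimod, 9.75 with Pam3CSK4 and 8.76 with MALP2 in replicates 4 to 6, and 5.88, 6.50 and 6.87 in replicates 1 to 3. DSG1 passed with no treatment, the nearest being Pam3CSK4 at 3.67 (adjusted p = 0.0768 in limma). CDSN passed as higher with Pam3CSK4 (2.40, adjusted p = 0.0191), MALP2 (2.09, adjusted p = 0.0239) and imiquimod (1.80, adjusted p = 0.0472), and all 3 calls were lost with a random effect of run (adjusted p = 0.168, 0.145 and 0.204) and without replicates 4 to 6 or any 1 of these replicates (1.44 to 2.09), that with imiquimod also without replicate 3 (1.82). Of the 9 other desmosome genes listed, these calls and PKP4, lower with MALP2 (−0.42, adjusted p = 0.0144, and 0.149 with a random effect of run; lost without MALP2 replicate 1 or 6, at −0.39 and −0.40), were the only ones.

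**Figure D5:**
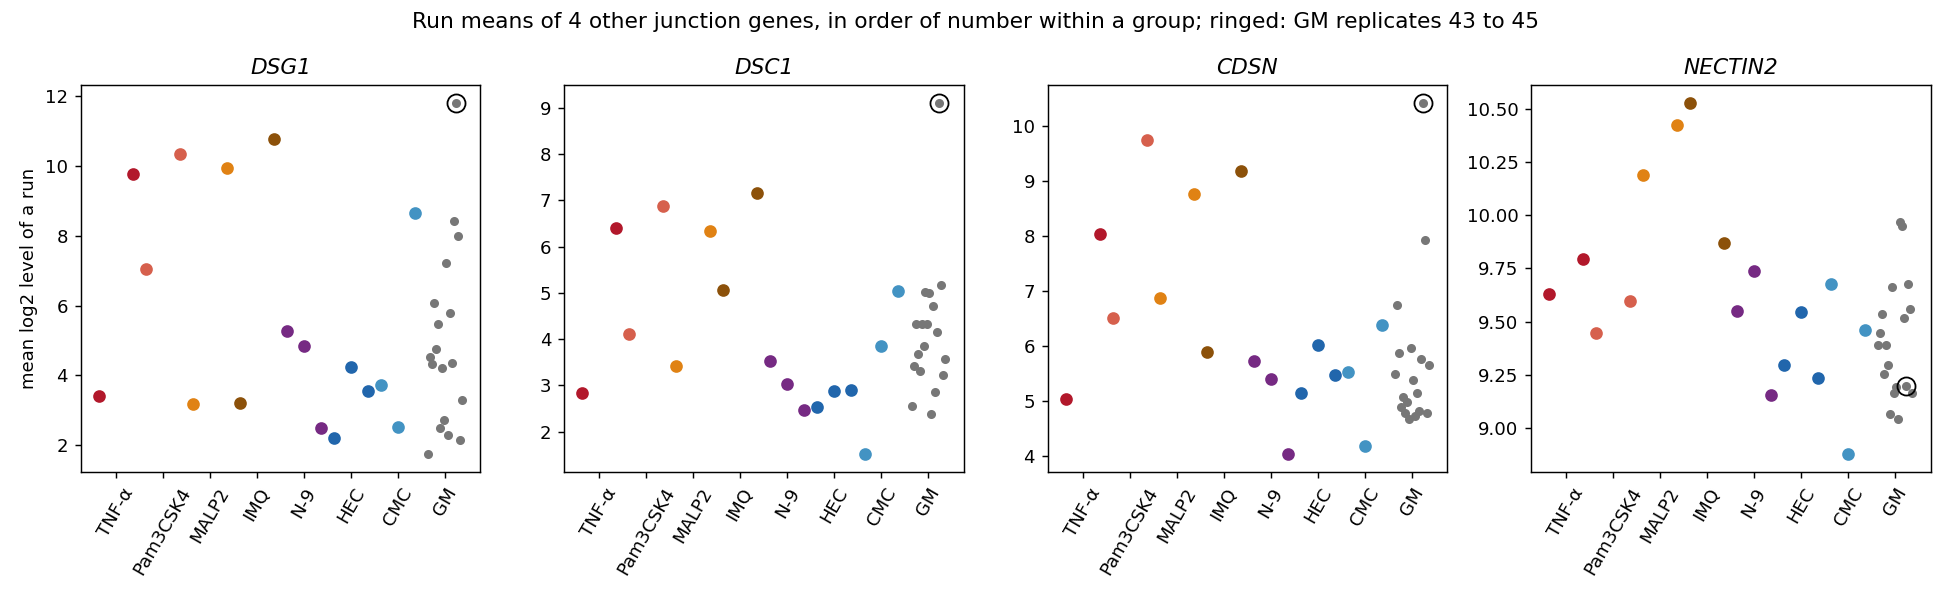
Mean log2 level (y axis) of each run of 3 consecutive replicate numbers for DSG1, DSC1, CDSN and NECTIN2, with treatments left and GM right and runs in order of number within a group; the ring marks GM replicates 43 to 45. That run is the highest GM run for DSG1 (11.81), DSC1 (9.11) and CDSN (10.44) and not for NECTIN2 (9.20), where MALP2 reached 10.42.

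Of 9 measured adherens junction genes outside the members, 3 passed as higher with MALP2 (5% of genes), 3 with imiquimod (6.89%) and 1 with Pam3CSK4 (1.92%), and 1 passed as lower with N-9 (13.2%). NECTIN2, an immunoglobulin-like adhesion receptor, averaged 10.31 ± 0.15 with MALP2 (SD, n = 6) and 9.42 ± 0.29 in GM (SD, n = 53), a difference of 0.89 (adjusted p = 8.36e-08 in limma), and was 0.78 higher with imiquimod (adjusted p = 1.28e-06). Both NECTIN2 calls held with a random effect of run (adjusted p = 1.65e-05 and 0.000104) and were lost with the mean of its probesets (0.69 and 0.47, adjusted p = 0.191 and 0.396), and that with imiquimod was lost without imiquimod replicates 1 to 3 (0.45, adjusted p = 0.129). All 6 MALP2 arrays, from 10.13 upward, were above the highest GM array at 10.05.

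Afadin (AFDN), the adaptor that links nectins to actin, was higher with MALP2 (0.64, adjusted p = 0.000515 in limma), imiquimod (0.50, adjusted p = 0.00715) and Pam3CSK4 (0.48, adjusted p = 0.0385). CTNNB1, the β-catenin that binds the tail of E-cadherin, was higher with MALP2 (0.43, adjusted p = 0.0183) and imiquimod (0.40, adjusted p = 0.0213). VCL, the vinculin of the actin link, was lower with N-9 (−0.35, adjusted p = 0.0354). With a random effect of run AFDN kept its calls with MALP2 (adjusted p = 0.00761) and imiquimod (adjusted p = 0.0446), and its call with Pam3CSK4 and those of CTNNB1 and VCL were lost (adjusted p between 0.0993 and 0.217). Leaving out 1 array ended the AFDN call with Pam3CSK4 in all 6 cases (0.45 to 0.51), the CTNNB1 call without MALP2 replicate 1 or 6 (0.40 and 0.41) or imiquimod replicate 3 (0.36), and the VCL call without N-9 replicate 1, 2 or 3 (−0.32, −0.31 and −0.31). With the mean of all probesets of a gene CTNNB1 turned to −0.10 with imiquimod and VCL to 0.03 with N-9.

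Genes that repress cadherins or cut them from the surface were followed as a list of 7, of which 3 passed as higher with N-9 (6.65% of genes), 1 with MALP2 (5%) and 1 with imiquimod (6.89%). SNAI1, a zinc finger repressor of CDH1, was dim in GM (4.07 ± 0.54, SD, n = 53) and higher with N-9 (1.04, adjusted p = 0.000721 in limma), MALP2 (0.92, adjusted p = 0.0352) and imiquimod (0.86, adjusted p = 0.0405). The protease ADAM17, which sheds surface proteins, was higher with N-9 (0.56, adjusted p = 4.15e-05), as was the repressor TWIST1 (0.48, adjusted p = 0.0337). With a random effect of run ADAM17 kept its call, and SNAI1 (adjusted p = 0.0737 with N-9) and TWIST1 (adjusted p = 0.119) lost theirs. SNAI1 was at 0.47 without imiquimod replicate 2 (adjusted p = 0.420), at 0.59 without replicate 4, at 0.93 without replicate 3 (adjusted p = 0.0529) and at 0.66 without MALP2 replicate 3 (adjusted p = 0.249), and the MALP2 call was also lost without replicate 4, 5 or 6 (0.94, 0.85 and 0.92). The TWIST1 call was lost without any 1 of N-9 replicates 1, 3, 4, 5 and 6 (0.43 to 0.47). When GM replicates 1 to 9 alone served as controls, ADAM17 was at 0.14 (adjusted p = 0.586). The other members of the list, SNAI2, ZEB1, ZEB2 and ADAM10, passed with no treatment. CDH1 with N-9 differed from GM by 0.02 (95% interval −0.16 to 0.21), an interval that leaves out runs. The 3 N-9 runs averaged 13.96, 13.01 and 13.55 for CDH1, where the 18 GM runs spanned 13.06 to 13.95. The first thus lay above and the second below every GM run, so the small mean difference does not show that CDH1 was unchanged.

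The genes whose 8 group means followed each wide-ranging member most closely were named by Pearson's r among the genes that ranged over at least 1 log2 unit. They were CFAP221 and PICALM for DSC2 (r = 0.99 each, 6725 genes compared), GM2A and ASXL1 for PKP1 (r = 0.99 and 0.97), CCDC185 and KCNK13 for DSG3 (r = 0.95 each), and LINC01305 and CPNE5 for JUP (r = 0.96 and 0.95). Among the members, the group means of DSC2 and DSP had r = 0.93, those of JUP and DSP r = 0.76, those of JUP and PKP1 r = 0.75, and those of DSG3 and DSC3 r = 0.70. These are descriptions over 8 group means that share arrays and scale.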

How the data were processed

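The deposited values were log2 signals of 54675 probesets on 105 Affymetrix U133 Plus 2.0 arrays. The authors' submission notes name MAS5 and GCOS 1.3, whereas the study's methods describe RMA in GeneSpring; the log2 values have the form of MAS5 signals scaled per array. Here 62 control probesets and 2 arrays were left out, the rest was quantile normalized, and limma 3.58.1 (R 4.3.3) fitted 1 mean per group to 54613 probesets on 103 arrays, with empirical Bayes and Benjamini-Hochberg adjustment per comparison. Probesets were named from the platform annotation: 41091 named 1 gene, 1801 several and 11721 were not listed, and a gene was read by its brightest probeset naming it alone. Other genes were named by the rule of at most 2 per list and treatment, the largest difference among those passing. The number of arrays limits precision, and intervals are 95%. The fitting code was checked on data with known answers. Alternatives were other normalization, offset, filter, controls, blocks and left-out arrays. Members, lists and tests were chosen with earlier results of these data known. Promoter windows came from the RefSeq promoter table of GRCh38.p14.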

Additional observations from a re-analysis of the deposited data

Results flagged for a closer look

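In 70 groups of arrays (10 genes by 7 treatments), 2 held an array far from the rest by Dixon's criterion, which chance alone gives in about 1 group in 20. CDH1 was 12.97 on CMC replicate 3, where the nearest of the other 8 CMC arrays was 13.23 and the farthest 13.45. CDH3 was 12.48 on TNF-α replicate 4, where the nearest of the other 4 arrays used was 12.75 and the farthest 12.85.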

How the results depend on the processing

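Arrays limit precision by their number, and with 2 or 3 runs a treatment the calls depended on runs. An offset of 16 changed no count and no single gene. The counts of members passing were 1 with Pam3CSK4, 1 with MALP2, 2 with imiquimod, 0 with the other treatments, 4 between treatments and 11 over all member probesets. Small moves of these counts are not all listed below. Without quantile normalization MALP2 gave 2, imiquimod 1 and N-9 1. A filter on dim probesets gave 2 with Pam3CSK4, and between treatments it added DSP, lower with N-9 than with Pam3CSK4 (−0.35, adjusted p = 0.0382 in limma). All 105 arrays gave 0 with Pam3CSK4, 0 with MALP2, 1 with imiquimod, 0 between treatments and 5 over all probesets. A random effect of run gave 0 with Pam3CSK4, 1 with imiquimod and 5 over all probesets, and lost PKP1 between N-9 and MALP2. Controls limited to GM replicates 1 to 9 gave 2 with TNF-α, 3 with Pam3CSK4, 1 with N-9, 1 with CMC, 8 between treatments and 22 over all probesets. With imiquimod these controls added DSC3, as lower, to DSC2 and DSP. Only the treatment and GM in the fit gave 0 with Pam3CSK4 and 1 with imiquimod. Analysis of variance with a fold over 2 gave 1 with imiquimod and did not call PKP1 between N-9 and MALP2. The mean of all probesets gave 2 with Pam3CSK4, 2 with MALP2 and 1 with imiquimod. Without GM replicates 43 to 45, chosen after seeing the data, there were 2 with Pam3CSK4 and 2 with MALP2.

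Leaving out 1 array of a treatment gave 0 to 0 with Pam3CSK4, 0 to 1 with MALP2 and 1 to 2 with imiquimod. Leaving out a run gave 0 with Pam3CSK4 (replicates 4 to 6), 2 (1 to 3) and 0 (4 to 6) with MALP2, 1 (1 to 3) and 0 (4 to 6) with imiquimod, 1 with N-9 in each case and 1 with HEC (7 to 9). The N-9 calls were of different genes: DSG2 lower (without 1 to 3), PKP3 lower (without 4 to 6) and CDH3 higher (without 7 to 9). Among values that had passed, those reversed were CTNNB1 with imiquimod, −0.10, and VCL with N-9, 0.026, by the mean of all probesets, and DSC2 probeset 204751_x_at with MALP2, −0.013, without replicates 4 to 6. Members that had not passed also turned: against GM replicates 1 to 9, 26 of 70 signs did, CDH3 passing as lower with Pam3CSK4 (−0.68) and CMC (−0.65). The cause was not tested.

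Not every same-numbered pair of a treatment and GM array correlated above 0.1 in its deviations (−0.24 to 0.34; 6 of 9 pairs did with N-9 and 6 of 9 with HEC), so the numbers were not taken to pair the samples, and 0 of 6 to 3 of 9 arrays of a treatment correlated best with their own number. With the replicate number as a block, TNF-α, Pam3CSK4 and MALP2 each gave 3 passing members, imiquimod 4, N-9 and CMC 1 each, 9 comparisons between treatments passed, and 31 over all probesets. Of these members 7 were higher, among them DSC2 with TNF-α (1.54, adjusted p = 0.0186 in limma), and 8 lower: CDH3 with TNF-α (−0.93), Pam3CSK4 (−0.83), MALP2 (−0.57), imiquimod (−0.63) and CMC (−0.65), DSC3 with TNF-α (−0.77) and imiquimod (−0.72), and PKP1 with N-9 (−1.15, adjusted p = 0.00108). The block turned 26 of 70 signs.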
